A study of Mus musculus with 96 samples.

Results

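The comparison described here sets C2C12 cells that had spent 24 hr in low serum (day 1 cells, 3 samples) against proliferating C2C12 myoblasts (3 samples), 6 of the 96 samples of the series, and all 6 were chosen by their labels alone. C2C12 is a mouse myoblast line that divides in rich medium and, once confluent and moved to low serum, leaves the cell cycle and fuses into myotubes. The series asked how such cells respond to mitochondrial inhibitors; the samples used here received DMSO, the solvent of the inhibitors, for 10 hr. RNA was measured by Smart-seq2, a full-length polyA method that does not keep the strand.

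The myoblast samples were not plain C2C12 cells. They came from a line that stably carries a lentiviral luciferase transgene under a doxycycline-inducible promoter, were grown in medium with 10% dialyzed fetal bovine serum, and received 300 ng/ml doxycycline from 24 hr before the treatment. The day 1 cells carried no transgene, received no doxycycline, and were grown to confluence in medium with more serum than that of the myoblasts before a change to 2% dialyzed horse serum. The sources do not say whether the 10 hr of DMSO fell within the 24 hr of low serum. Serum, the growth to confluence, the transgene and doxycycline therefore changed together, and their parts in any difference between the groups cannot be told apart. The position codes in the labels, read as plate wells, also separate the groups: columns 1 and 2 for the myoblasts, 11 and 12 for the day 1 cells. To show which differences depend on the luciferase line, day 1 cells were also compared with DMSO-treated myoblasts of 3 other transgene lines that had received the same doxycycline (LbNOX and mitoLbNOX, 3 samples each, and NDI1, 2 samples). To show what came next, they were compared with 3 samples of untransduced myotubes after 4 days in low serum (day 4 myotubes). These added comparisons all share the 3 day 1 samples.

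Leaving the cell cycle and building the contractile apparatus are linked in muscle. In dividing myoblasts, cyclin D with its kinases keeps the retinoblastoma protein phosphorylated, E2F factors drive the genes of DNA replication, and Id proteins hold the bHLH factors MyoD and Myf5 away from their E-protein partners. When mitogens are withdrawn, the CDK inhibitor p21 and the retinoblastoma protein accumulate, repressor complexes with E2F4 or with DREAM shut the replication and mitosis genes, and MyoD and its target myogenin, together with MEF2 factors, switch on membrane fusion and sarcomere genes. The promoters of these gene groups carry known sequence elements: E2F sites in replication genes, the CHR element and CCAAT boxes (bound by NF-Y) in mitosis genes, and E-boxes, MEF2 sites and CArG boxes (bound by SRF) in muscle genes.

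Promoter windows of 4 genes are printed here because the results turn on these genes and each window carries an element of its group. Each runs from 250 bases before to 50 bases after a RefSeq start site on build GRCm38.p6, 5′ to 3′ on the strand of the gene, and capitals mark every match to the 6 elements searched for. Cdk1, the mitotic kinase, lies at chr10:69352863-69353162 on the minus strand. Mcm5, a subunit of the replicative helicase, lies at chr8:75109259-75109558 on the plus strand. Tmem182, a muscle membrane protein, lies at chr1:40805351-40805650 on the plus strand. Actc1, cardiac alpha-actin, which is also the early actin of skeletal muscle, lies at chr2:114052826-114053125 on the minus strand.
Cdk1: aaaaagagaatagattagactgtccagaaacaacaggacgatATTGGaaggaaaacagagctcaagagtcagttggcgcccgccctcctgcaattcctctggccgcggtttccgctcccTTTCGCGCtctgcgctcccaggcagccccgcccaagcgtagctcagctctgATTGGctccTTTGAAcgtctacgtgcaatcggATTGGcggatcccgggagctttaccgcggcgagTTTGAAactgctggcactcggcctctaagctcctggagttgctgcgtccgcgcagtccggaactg
Mcm5: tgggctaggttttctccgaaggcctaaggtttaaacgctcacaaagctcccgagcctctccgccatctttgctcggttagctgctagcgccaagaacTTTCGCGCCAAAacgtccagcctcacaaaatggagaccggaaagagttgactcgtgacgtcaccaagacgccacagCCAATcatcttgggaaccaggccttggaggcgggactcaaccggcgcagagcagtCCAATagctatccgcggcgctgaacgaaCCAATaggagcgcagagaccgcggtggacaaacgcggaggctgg
Tmem182: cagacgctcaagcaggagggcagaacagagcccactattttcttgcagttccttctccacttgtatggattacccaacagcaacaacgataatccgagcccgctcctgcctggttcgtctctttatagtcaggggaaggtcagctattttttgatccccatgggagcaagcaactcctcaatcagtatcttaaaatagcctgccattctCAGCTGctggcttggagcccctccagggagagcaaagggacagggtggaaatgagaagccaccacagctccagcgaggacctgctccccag
Actc1: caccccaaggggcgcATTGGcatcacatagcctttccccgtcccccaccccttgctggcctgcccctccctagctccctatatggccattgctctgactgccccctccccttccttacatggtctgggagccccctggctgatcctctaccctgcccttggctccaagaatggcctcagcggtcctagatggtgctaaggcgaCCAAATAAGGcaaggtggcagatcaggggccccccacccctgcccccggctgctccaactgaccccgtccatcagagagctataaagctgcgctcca

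With the first base after the 250 upstream bases counted as 0, the Cdk1 window holds an E2F match at -131, CHR matches at -71 and -15 and CCAAT matches on the opposite strand at -208, -80 and -48. The Mcm5 window holds a pair of overlapping E2F matches at -153 and -149, read on opposite strands, and CCAAT matches at -77, -22 and 6. The Tmem182 window holds an E-box at -41. The Actc1 window holds a CArG box at -47 and a CCAAT match on the opposite strand at -235.

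Total counts of the 6 samples ran from 9932237 to 13898633, with a median of 10569794, and the 100 most abundant genes took 42.1% to 44.8% of the counts of each sample. Luciferase counts were 1982, 2523 and 2047 in the luciferase myoblasts and 0 in each of the other 14 DMSO samples, as labelled. The labels do not say whether replicates were separate cultures, so p-values measure only the spread between these samples. Muscle lineage markers stood at a summed 807 to 850 CPM (counts scaled to library size) in the myoblasts and 4080 to 4240 CPM in the day 1 cells, and all 6 of them rose. The summed markers of adipocytes went from 12.8 to 14.8 CPM up to 35.4 to 37.1 CPM with Adipoq at 0 in all 6 samples. Within that sum Cd36 and Lpl rose while Pparg fell. The summed markers of tendon and fibroblasts went from 11.3 to 15.9 CPM up to 38.6 to 39.8 CPM with Tcf21 at 0. Bone and cartilage markers summed to 64.5 to 75.3 and 54.8 to 61.3 CPM (Acan at 0), endothelial and blood markers to 4.22 to 4.9 and 3.06 to 4.27 CPM (Hbb-bs at 0), and neural and Schwann markers to 2.06 to 5.09 and 2.72 to 6.23 CPM (Sox10 at 0). Their part in the results was not tested. In bulk RNA, a change in the share of cells that express a gene and a change in RNA per cell cannot be told apart.

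Of 11953 genes tested with edgeR's quasi-likelihood test, 4039 (33.8%) were higher at day 1 than in the luciferase myoblasts and 3809 (31.9%) were lower at an adjusted p under 0.05. At least 2-fold differences were called for 1824 genes higher (15.3%) and 1237 genes lower (10.3%), and the median log2 fold change over all genes tested was 0.025. These shares are the background against which each gene group below has to be read. The groups were described by their counts and medians only (plot of gene groups): replication, mitosis and ribosome biogenesis genes were lower, and sarcomere, calcium handling, neuromuscular junction and IGF genes were mostly higher.

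**Figure D1:**
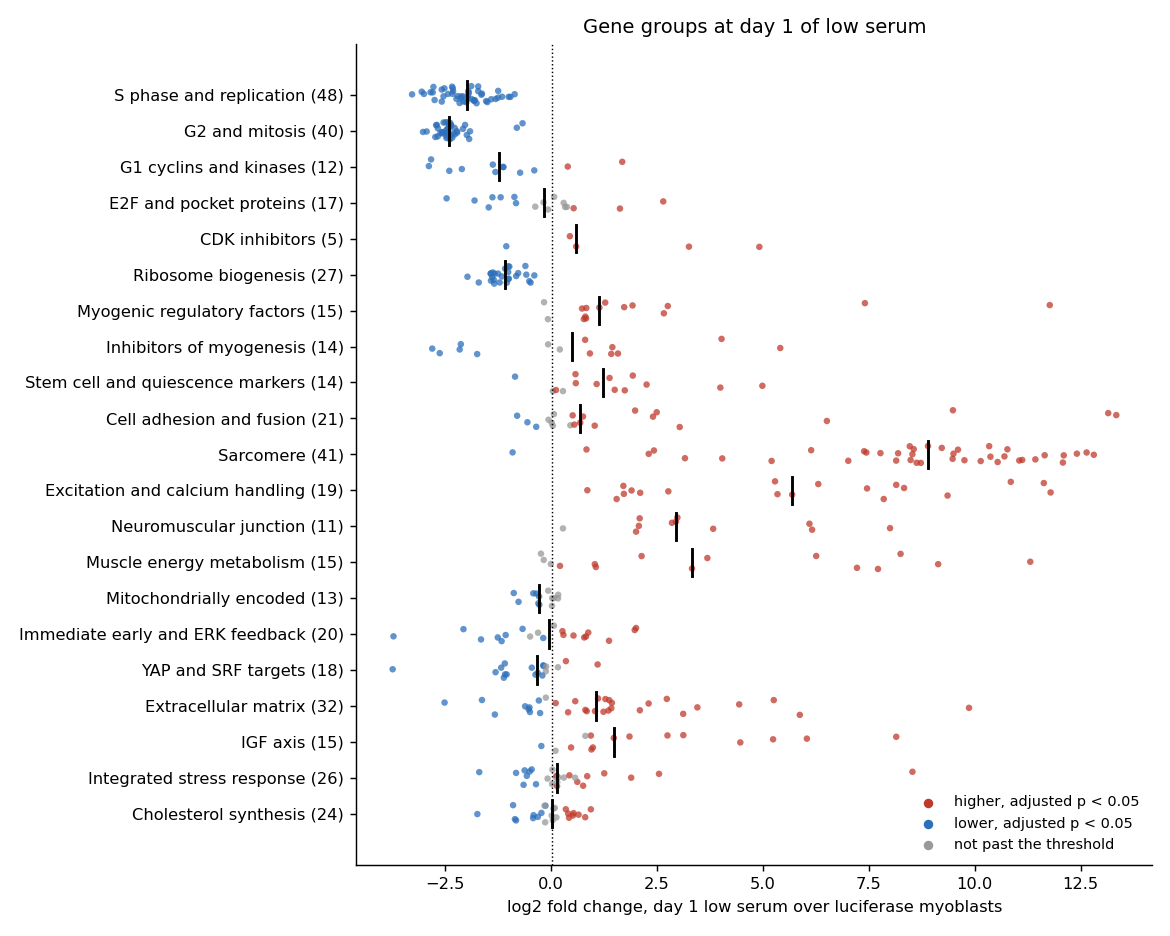
Log2 fold change of each tested member of 21 gene groups, day 1 cells over luciferase myoblasts (x axis); each point is a gene, the black bar is the median of the group, and the number of genes tested is in parentheses. All 48 replication and all 40 mitosis genes lie left of 0, and all but 1 of 41 sarcomere genes lie right of it, with a median of 8.90.

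The genes that copy DNA fell without exception. All 48 genes of S phase and replication were lower, with a median log2 fold change of -1.99 against 0.025 for all genes and 31.9% of all genes called lower. The fall reached -3.28 for Orc1, the largest subunit of the origin recognition complex, and was smallest for Rfc1, the large subunit of the clamp loader, at -0.86. The helicase subunit gene Mcm5 stood at 238, 225 and 239 CPM in the myoblasts and at 36.8, 29.2 and 30.6 CPM in the day 1 cells with no overlap (log2 fold change -2.85 ± 0.0802 SE, adjusted p = 1.39e-09 by edgeR). Cdc6, which loads the helicase, fell by 3.06 on the log2 scale, Tk1, the S phase thymidine kinase, by 2.79 and Rrm2, the limiting subunit of ribonucleotide reductase, by 2.09. Chaf1a, a histone chaperone subunit, fell to 3.72 ± 0.204 CPM from a wide spread in the myoblasts (30.1 ± 11.7 CPM, SD, n = 3).

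The genes of G2 and mitosis fell as well. All 40 were lower, with a median of -2.42, and 38 of them at least 2-fold, where 10.3% of all genes tested passed that size. Cdk1 stood at 286, 272 and 270 CPM in the myoblasts, 55.8, 49.3 and 53.5 CPM at day 1 and 36, 29 and 26 CPM at day 4. Each step down was free of overlap between groups. Aurka, the spindle pole kinase (103 ± 5.21 to 12.5 ± 1.9 CPM, SD, n = 3), had the deepest fall of the group at -3.02. Espl1, the protease separase that frees sister chromatids, fell by 2.94, Plk1, a mitotic kinase, by 2.73 and Ccnb1, the cyclin of Cdk1, by 2.70. The proliferation marker Mki67 went from 111 to 19.7 CPM. The smallest falls were those of Cdc25b, a phosphatase that activates Cdk1, at -0.68 and of Bub3, a spindle checkpoint protein, at -0.81.

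The fall was not complete at day 1. From day 1 to day 4, where 17.7% of 12554 genes tested were higher and 19.5% lower, 37 of the 40 mitosis genes and 26 of the 48 replication genes fell again, and 1 replication gene, the DNA ligase Lig1, rose (0.41 on the log2 scale). The median further change was -0.57 for mitosis and -0.32 for replication genes, with -0.05 over all genes. Mcm5 was at 32.2 CPM at day 1 and 27.6 CPM at day 4, a difference that did not pass the test (adjusted p = 0.0869, edgeR).

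The windows of these gene groups differed in the elements they hold. E2F sites were searched on both strands as TTTCCCGC, TTTGGCGC, TTTCGCGC or TTTGCCGC, which can overlap each other as in Mcm5, the CHR as TTTGAA, the CCAAT box as CCAAT and the E-box as CAGCTG; MEF2 sites and CArG boxes were searched by their usual consensus. RefSeq windows were found for 39 of the 48 replication genes (47 windows), 33 of 40 mitosis genes (36), 22 of 27 ribosome biogenesis genes (29), 33 of 41 tested sarcomere genes (38) and 11 of 19 calcium handling genes (13). An E2F match was in 31.9% of the replication windows, 13.8% of the ribosome biogenesis windows and 2.78% of the mitosis windows, with 2.26% of all 32851 windows. A CHR match was in 72.2% of the mitosis windows and 12.8% of the replication windows, with 17.9% of all. CCAAT matches were in 77.8% of mitosis, 59.6% of replication and 24.1% of ribosome biogenesis windows, with 37.4% of all. In sarcomere windows, E-boxes were found in 39.5%, MEF2 sites in 18.4% and CArG boxes in 15.8%, with 16.3%, 3.19% and 1.63% of all windows; of the 13 calcium handling windows, E-boxes were in 53.8%, MEF2 sites in 7.69% and CArG boxes in 0. These are counts of letters, not of bound sites, and several genes have more than 1 window.

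**Figure D2:**
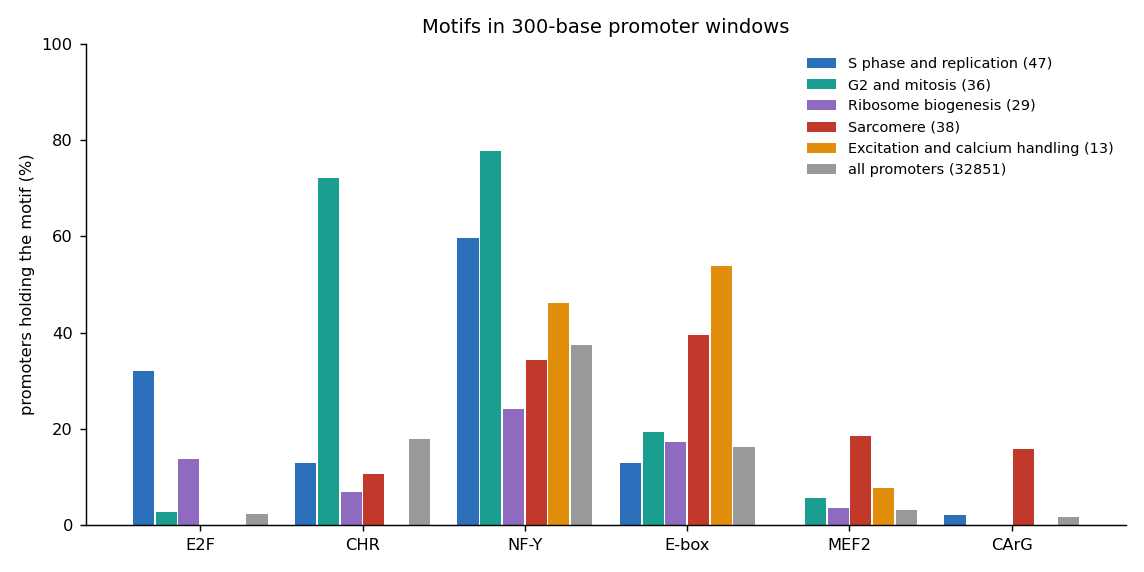
Share of promoter windows (y axis, %) that hold each sequence element (x axis) for 5 gene groups and for all windows; the number of windows is in parentheses. CHR matches stand highest in mitosis windows (72.2%), E2F matches in replication windows (31.9%), and E-box matches in calcium handling (53.8%) and sarcomere windows (39.5%).

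Among the cyclins and kinases of G1, most fell and the D cyclins parted. Ccnd1, the cyclin induced by mitogens, stood at 219, 215 and 237 CPM in the myoblasts and at 28.6, 32.7 and 28.6 CPM at day 1, a 7.4-fold fall (log2 fold change -2.89 ± 0.07 SE, adjusted p = 4.87e-10, edgeR). Ccnd3, the D cyclin that persists in differentiating muscle, stood at 140, 157 and 157 CPM and rose to 465, 481 and 496 CPM (1.68 ± 0.0545 SE, adjusted p = 3.3e-09). The groups do not overlap for either gene. Ccnd2 fell by 1.32 and the S phase cyclins Ccne1 and Ccne2 by 2.40 and 2.83. Of the kinases, Cdk4 (-0.40) and Cdk6 (-0.73) fell, while Cdk2 was slightly higher at day 1 (0.39) and fell after it (-0.84 from day 1 to day 4). Cks1b, Skp2 and Cdc25a, which help cyclin-CDK complexes or destroy their inhibitors, fell by 2.11, 1.38 and 1.13, and the growth factor target Myc fell from 64.3 ± 4.15 to 29 ± 1.93 CPM (SD, n = 3). In all, 10 of 12 members were lower and 2 higher, with a median of -1.22.

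The CDK inhibitors moved in the opposite direction, apart from 1 member. Cdkn1a, which encodes p21, stood at 117, 125 and 118 CPM in the myoblasts, 1112, 1132 and 1159 CPM at day 1 and 1656, 1540 and 1585 CPM at day 4. Its 9.53-fold rise by day 1 (log2 fold change 3.25 ± 0.0395 SE, adjusted p = 4.14e-12, edgeR) was followed by a further rise of 0.49. Cdkn1c, encoding p57, rose from 0.298 ± 0.312 to 8.87 ± 0.944 CPM (4.92). Cdkn2c, encoding p18, rose by 0.59, a call lost without the count filter (adjusted p = 0.0599), and Cdkn2d, encoding p19, fell from 38.9 to 18.6 CPM. Cdkn1b, encoding p27, was higher by 0.44 (adjusted p = 0.0124), and this call was lost without replicate 1 of the day 1 cells (adjusted p = 0.0549) or without replicate 2 of the myoblasts (adjusted p = 0.0551). Of the 7 members, 5 passed the count filter, 4 higher and 1 lower; 1 of the 5 passed only through the day 1 samples.

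The retinoblastoma family and the E2F factors split by member. Rb1 rose from 6.48, 5.23 and 5.58 CPM to 15.1, 18 and 19.5 CPM (1.62), and its relative Rbl2, encoding p130, rose by 0.53, while Rbl1, encoding p107, fell by 1.81. E2f2 was the E2F gene that rose, from 8.36, 10.6 and 10.2 CPM to 60.8, 62.8 and 58.2 CPM (2.65 ± 0.103 SE, adjusted p = 1.14e-08, edgeR), and rose again to 90.1 CPM at day 4. E2f3 (-1.39), E2f6 (-0.87), E2f7 (-2.47) and the partner gene Tfdp1 (-1.19) fell. Lin9 (-1.47) and Lin54 (-0.83), subunits of the MuvB core that DREAM shares with the mitotic activator complex, also fell. E2f1, E2f4, E2f5, E2f8, Tfdp2, Lin37 and Lin52 did not pass the test, with log2 fold changes between -0.38 and 0.37. In separate fits against other lines, E2f5 was called lower than in LbNOX (-1.10, adjusted p = 0.000875, edgeR) and mitoLbNOX myoblasts (-1.21, 0.00228), and E2f4 was called higher than in NDI1 (0.59, 0.0144) and Lin37 than in mitoLbNOX myoblasts (0.36, 0.0474). With 3 of 17 members higher and 7 lower, the median of the group was -0.18.

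Myogenin showed the widest change among the muscle transcription factors. Myog stood at 0.751, 0.358 and 0.189 CPM in the myoblasts, at 1442, 1531 and 1576 CPM at day 1 and at 818, 791 and 730 CPM at day 4. It was thus near 0 before the switch, highest at day 1 and lower again at day 4 (log2 fold change 11.77 ± 0.128 SE, adjusted p = 1.78e-12, then -0.96, adjusted p = 9.14e-07, edgeR). Myod1 was already present, at 122, 123 and 129 CPM, and rose to 207, 205 and 220 CPM, a 1.71-fold change. Myf5 rose from 11.2 ± 1.66 to 18.3 ± 3.01 CPM (0.73) and fell back to 9.26 CPM at day 4. Myf6, encoding MRF4, had 1 count over the 3 myoblast samples and 7 over the 3 day 1 samples, did not pass the count filter, and rose from day 1 to day 4 by 4.03.

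The MEF2 genes rose in steps. Mef2c went from 0.282, 0.287 and 0 CPM to 37.7, 32 and 36 CPM at day 1 and to 228, 248 and 259 CPM at day 4, so that each group lay above the one before it (7.41, then 2.80). Mef2a (1.92) and Mef2d (1.14) started from measurable levels of 23.9 and 20.2 CPM. Hes6, a bHLH factor that antagonizes Hes1, rose by 2.66, and Tead4, a target of the myogenic factors, by 2.75. The E-protein genes Tcf4 (1.28) and Tcf12 (0.83) rose, while Tcf3 did not pass the test (-0.17). Of 15 members tested, 13 were higher and 0 lower, with a median of 1.14, where 33.8% of all genes were called higher; 2 of the 15 passed the count filter only through day 1.

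**Figure D3:**
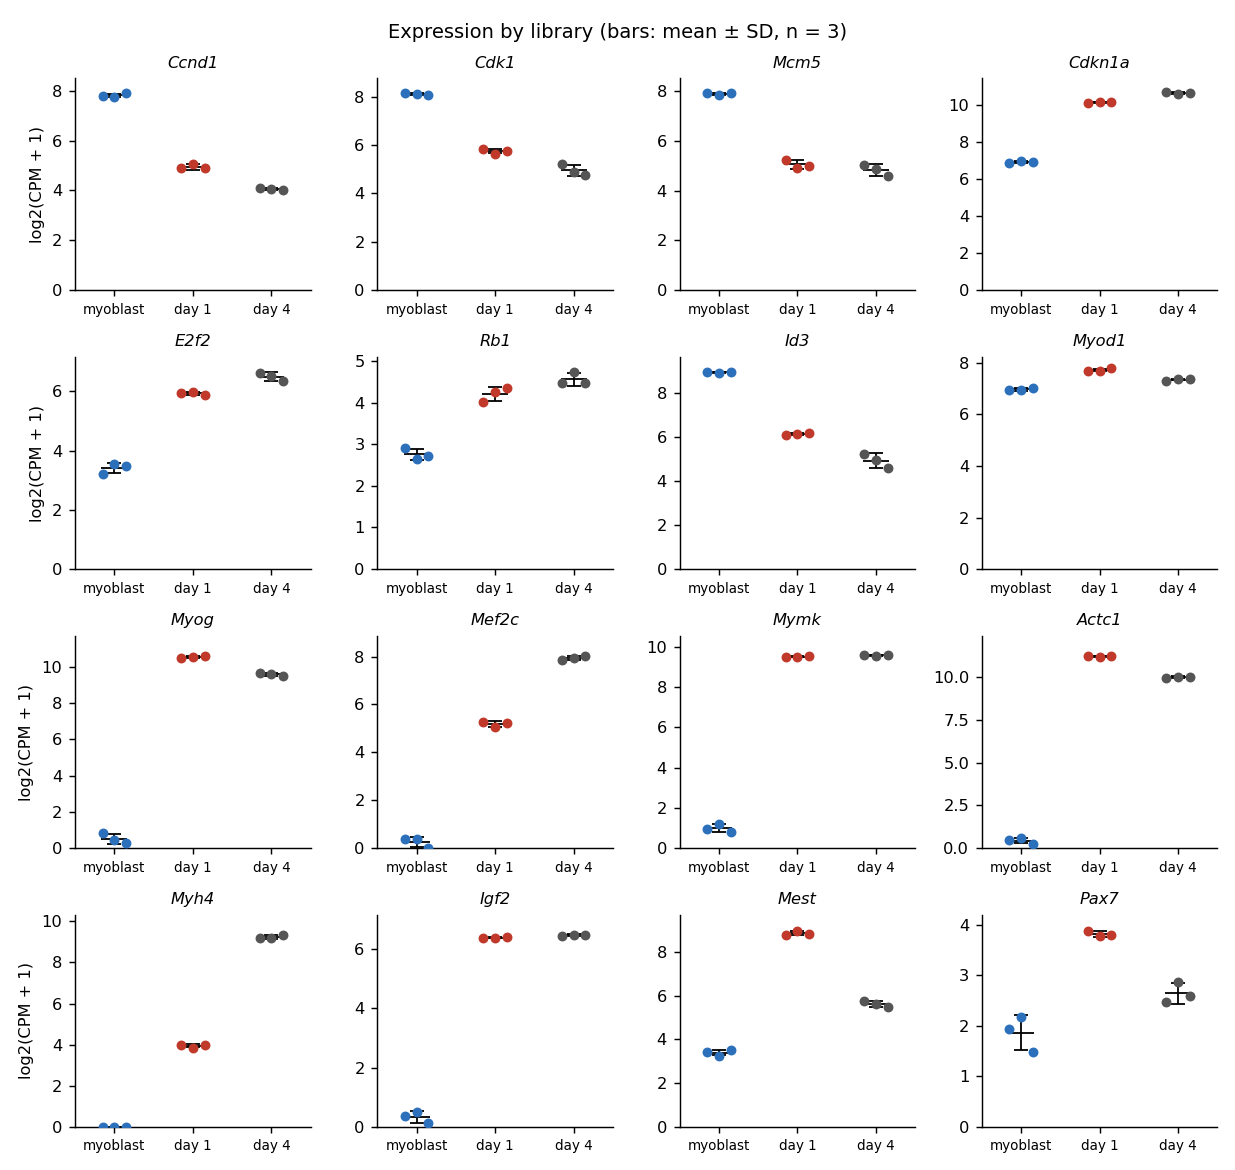
Expression of 16 genes in each sample as log2(CPM + 1) (y axis) in luciferase myoblasts, day 1 cells and day 4 myotubes (x axis); points are samples, and bars give the mean ± SD of the log values, n = 3. Ccnd1 and Cdk1 step down, and Cdkn1a, E2f2 and Mef2c step up, across the 3 groups. Mcm5 falls by day 1 and overlaps between day 1 and day 4. Myog, Mest and Pax7 are highest at day 1, and Myh4 rises from 0 in the myoblasts to a higher level at each later step.

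Repressors of the myogenic program did not move as 1 group. The Id genes, whose proteins trap E proteins, all fell: Id3 from 498, 489 and 497 CPM to 67.3, 71 and 71.7 CPM (-2.81 ± 0.0414 SE, adjusted p = 1.64e-11, edgeR), Id1 by 2.16 and Id2 by 2.63. Id3 fell again by day 4, to 30.3 CPM, whereas Id2 rose (0.73). Twist2 (-1.75) fell as well. So did Smad7 (-2.13), a member of the list that inhibits TGF-beta signaling rather than myogenesis, so its fall is not read as a loss of repression. Heyl, a Notch target, rose from 0.6 ± 0.239 to 25.6 ± 0.51 CPM (5.41), Hey1 rose by 0.80, and the bHLH repressors Msc, Bhlhe40 and Bhlhe41 rose by 4.02, 1.45 and 1.42. Hes1 (0.20) and Snai1 (-0.07) did not pass the test. Of the 14 members tested, 7 were higher and 5, with Smad7 among them, lower. The count filter was passed by 2 only through day 1 and by 1 only through the myoblasts.

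Several genes that mark satellite cells, the stem cells of muscle, rose at day 1 and fell again. Pax7, their defining transcription factor, stood at 2.82, 3.51 and 1.8 CPM in the myoblasts, 13.6, 12.6 and 12.8 CPM at day 1 and 4.54, 6.33 and 5.02 CPM at day 4 (2.25, then -1.29). The day 1 samples lay above all others. Vcam1, an adhesion receptor of satellite cells, went from 53.9, 47.9 and 52.6 CPM to 164, 178 and 168 CPM and returned to 47.9, 41 and 39.9 CPM (1.74, then -1.99). The Notch ligand Dll1 rose 31.7-fold, from 1.14 ± 0.279 to 36 ± 1.8 CPM, and the receptors Notch3 and Notch1 rose by 1.93 and 1.07 and fell again at day 4 by 0.99 and 0.90. Spry1, a brake on growth factor signaling, rose by 3.99 and Cxcr4 went from 7.8 to 21.8 CPM, and the Notch ligand Jag2 fell by 0.85. Of 14 members tested, 11 were higher and 1 lower at day 1, and 6 were lower and 3 higher at day 4. Over all genes, 19.5% were lower and 17.7% higher from day 1 to day 4. Because 2 of the 14 passed the count filter only through the day 1 samples, which favors higher values, the day 1 count is a description.

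The mRNAs of muscle fusion proteins were present by day 1. Mymk, the myomaker gene, stood at 0.939, 1.29 and 0.756 CPM in the myoblasts and at 719, 732 and 748 CPM at day 1 (9.48 ± 0.0877 SE, adjusted p = 5.62e-13, edgeR), and its 768 CPM at day 4 did not differ past the threshold from day 1 (adjusted p = 0.545). Mymx, encoding the small fusion protein that acts with it, had 0 counts in the myoblasts and 93.2, 99.2 and 105 CPM at day 1, at least 1170-fold higher when the myoblasts are set to the floor of 3 counts over the group. Tmem182, a muscle membrane protein gene not taken here as part of the fusion machinery, was at 0 in the myoblasts. It stood at 111, 106 and 122 CPM at day 1, at least 1330-fold higher by the same floor, the largest fitted change of all genes tested. Cav3, muscle caveolin, rose from 0.204 to 18.9 CPM and to 104 CPM at day 4.

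Adhesion genes that the myoblasts already expressed rose less. Itga7, the laminin receptor subunit of muscle, rose from 128, 135 and 122 CPM to 998, 1051 and 1077 CPM (3.04), Cdh15, M-cadherin, from 99.5 to 555 CPM (2.49), Ncam1 from 144 to 565 CPM (1.98) and Dysf, dysferlin, by 2.40. Adam12 (-0.80), Neo1 (-0.56) and Dock1 (-0.35) were lower; the call for Dock1 was lost without either of replicates 2 and 3 of the day 1 cells or without either of replicates 1 and 3 of the myoblasts (adjusted p from 0.0561 to 0.110). Itgb1 was low in myoblast replicate 1 (122, 238 and 175 CPM against 208, 262 and 256 CPM) and did not pass the test. Of 21 adhesion and fusion genes tested, 13 were higher and 3 lower; 4 of the 21, Mymx and Tmem182 among them, passed the count filter only through day 1, which favors higher values.

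Sarcomere genes took a larger share of all counts at day 1. Their 46 genes made up 0.227 ± 0.0065% of all counts in the myoblasts, 3.06 ± 0.048% at day 1 and 3.98 ± 0.16% at day 4 (SD, n = 3), with no overlap (exact permutation test of myoblasts against day 1, two-sided, p = 0.1, the smallest that 3 against 3 samples allow). Of 41 genes tested, 40 were higher and 1 lower. Because 31 of the 41 passed the count filter only through the day 1 samples, a filter that favors higher values, the count and the median are descriptions. Their median log2 fold change was 8.90, or 8.56 with the 6 genes at 0 in the myoblasts set to their bound.

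Actc1 led among the abundant members. It stood at 0.376, 0.502 and 0.189 CPM in the myoblasts, at 2395, 2361 and 2458 CPM at day 1 and at 985, 1044 and 1042 CPM at day 4 (12.64 ± 0.0888 SE, adjusted p = 1.12e-13, then -1.23, edgeR). Acta1, the adult skeletal actin, rose from 19.4, 14.7 and 15.9 CPM to 6010, 6175 and 6367 CPM and then held (8.56, then 0.05, adjusted p = 0.733). Of the 2 actin genes, then, Actc1 was past its highest level at day 4 and Acta1 was not measurably changed. Tnnc2, fast troponin C, rose from 0.149 to 824 CPM (12.41), and Smyd1, a methyltransferase needed for myofibril assembly, had 3 counts over the myoblasts and 4103 over the day 1 samples, a ratio of 1450 (95% interval 495 to 7020, counting error only). The single member that fell was Tpm3, a tropomyosin also used outside muscle, from 543 to 286 CPM (-0.91), while Tpm1 and Tpm2 rose by 0.83 and 2.30.

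The 6 myosin heavy chain genes of the list, each higher at day 1 than in the myoblasts, differed in how far they rose after it. The embryonic gene Myh3, the perinatal gene Myh8 and the adult fast genes Myh1, Myh2 and Myh4 lie side by side on chromosome 11 (GRCm38), from 67078300 at the start of Myh3 to 67308634 at the end of Myh8. Myh3 stood at 0.282, 0.43 and 0.567 CPM in the myoblasts, 1875, 1932 and 1896 CPM at day 1 and 1896, 2070 and 2121 CPM at day 4, with no change past the threshold after day 1 (12.10, then 0.09, adjusted p = 0.587). Myh1 stood at 281, 296 and 299 CPM at day 1 and 1698, 1850 and 1966 CPM at day 4 (2.65 between them). Myh4 was at 0 counts in the myoblasts, at 14.7, 13.4 and 15 CPM at day 1 and at 584, 579 and 652 CPM at day 4, so that most of its CPM came after day 1 (at least 169-fold to day 1, then 5.39 on the log2 scale). Myh2 and Myh8 stood at 4.61 and 44 CPM at day 1 and rose further by 2.34 and 0.98. These genes share long stretches of coding sequence, and short reads were divided among them by the quantifier, so their separate levels are uncertain. The slow gene Myh7, which is not in this cluster, had 0 counts in the myoblasts and 78.5, 80.7 and 75.7 CPM at day 1, at least 915-fold higher.

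Late members stood out within the group by their change after day 1. Tcap, the titin cap protein, was at 3.51 CPM at day 1 and 77.7 CPM at day 4 (4.47), Mybpc2, fast myosin-binding protein C, at 2.37 and 54.2 CPM (4.50), and Myot, myotilin, had 1 count over the 3 day 1 samples and reached 10.7 CPM. From day 1 to day 4, 32 of the 41 sarcomere genes rose, 2 fell and 7 did not pass the test, with 17.7% of all genes called higher.

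**Figure D4:**
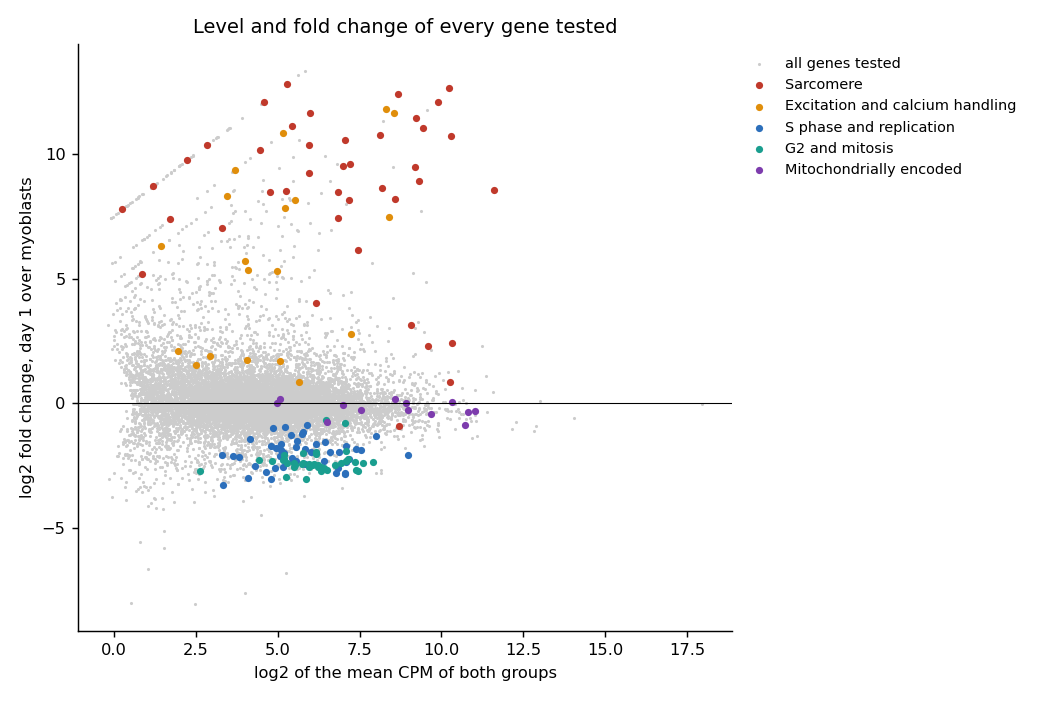
Log2 fold change, day 1 cells over luciferase myoblasts (y axis), against the log2 of the mean CPM of both groups (x axis) for the 11953 genes tested, with 5 gene groups in color. Sarcomere and calcium handling genes reach fold changes above 10 on the log2 scale, while replication and mitosis genes lie between -3.28 and -0.68; the straight lines of points at the left are genes with 0 counts in the myoblasts.

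Calcium handling and excitation followed the sarcomere. All 19 genes tested were higher, 11 of which passed the count filter only through the day 1 samples, with a median of 5.69. Atp2a1, the fast SERCA pump, rose from 0.143 to 637 CPM (11.79) and to 1531 CPM at day 4. Casq2, a calsequestrin, stood at 0.47, 0.143 and 0.0945 CPM and rose to 742, 739 and 773 CPM (11.63 ± 0.131 SE), with no change past the threshold at day 4. Casq1, its fast-fiber relative, was later, at 25.7 CPM at day 1 and 321 CPM at day 4. Cacna1s, the voltage sensor of skeletal muscle, had 1 count over the myoblasts and 2407 at day 1 (ratio 2550, 95% interval 457 to 101000, counting error only), and Ryr1, the release channel it opens, rose by 7.85.

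The acetylcholine receptor and its clustering genes also rose. Chrng, the fetal gamma subunit, went from 1.5, 1.15 and 0.473 CPM to 255, 279 and 274 CPM and to 625, 612 and 655 CPM at day 4 (256-fold, then 1.23 on the log2 scale). Chrne, the adult epsilon subunit, had 3 and 2 counts over the 2 groups, at or under the floor, and 4.5 CPM at day 4. Chrnd rose by 6.16, Chrna1 by 2.85, and the clustering genes Dok7, Lrp4 and Musk by 2.98, 2.95 and 2.09. Of 11 members tested, 10 were higher, 4 of the 11 passing the filter only through day 1.

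Enzymes of muscle energy supply rose, and the regulators of mitochondrial content were mixed. Ckm, muscle creatine kinase, stood at 0.282, 0.215 and 0.189 CPM and rose to 596, 597 and 601 CPM (11.31 ± 0.0765 SE, adjusted p = 1.05e-13, edgeR). Pygm, muscle glycogen phosphorylase, rose by 8.25, Pgam2 by 6.26, Pfkm by 2.13 and the muscle cytochrome oxidase subunit Cox6a2 by 7.22. Mb, myoglobin, was at 49.5 CPM at day 1 and 368 CPM at day 4. Ppargc1b rose by 1.03, while Tfam (-0.17) and Esrra (-0.24) did not pass the test and Ppargc1a, at 0.315 and 1.15 CPM, did not pass the count filter. Of 15 members tested, 12 were higher and 0 lower, with a median of 3.33, and 7 of the 15 passed only through day 1. With LbNOX myoblasts in place of the luciferase line, or without replicate 3 of the day 1 cells, 1 member was lower.

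The 13 mRNAs encoded in mitochondrial DNA were measured too, and their result depended on the myoblast line. They took 1.07 ± 0.11% of counts in the luciferase myoblasts, 0.856 ± 0.095% at day 1 and 1.03 ± 0.018% at day 4 (exact permutation test of myoblasts against day 1, two-sided, p = 0.1, the smallest possible). Against the luciferase line, 7 of the 13 were lower and 0 higher, with a median of -0.28. The same count was 3 lower and 5 higher with LbNOX myoblasts in their place, again 3 lower and 5 higher with NDI1 myoblasts, and 6 lower and 1 higher with mitoLbNOX myoblasts. Among the 4 myoblast lines themselves 7 of the 13 differed, where 3.78% of all 12554 genes did.

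Only mt-Atp8, a subunit of ATP synthase, was called lower against all 4 lines. It stood at 128, 105 and 115 CPM in the luciferase myoblasts and at 70.7, 60.5 and 70.6 CPM at day 1 (-0.77, and between -0.71 and -0.48 against the other lines). The neighboring gene mt-Atp6, which overlaps mt-Atp8, was lower by 0.88 with wide replicates (2472, 1807 and 2295 CPM against 1448, 897 and 1184 CPM) and by 0.35 against the NDI1 line (adjusted p = 0.115 in the joint fit of all lines). The complex I gene mt-Nd1 was lower by 0.35 against the luciferase line but not against the LbNOX line, which stood at 1581 CPM beside 1579 CPM at day 1. From day 1 to day 4, 10 of the 13 rose and 1, mt-Nd3, fell.

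**Figure D5:**
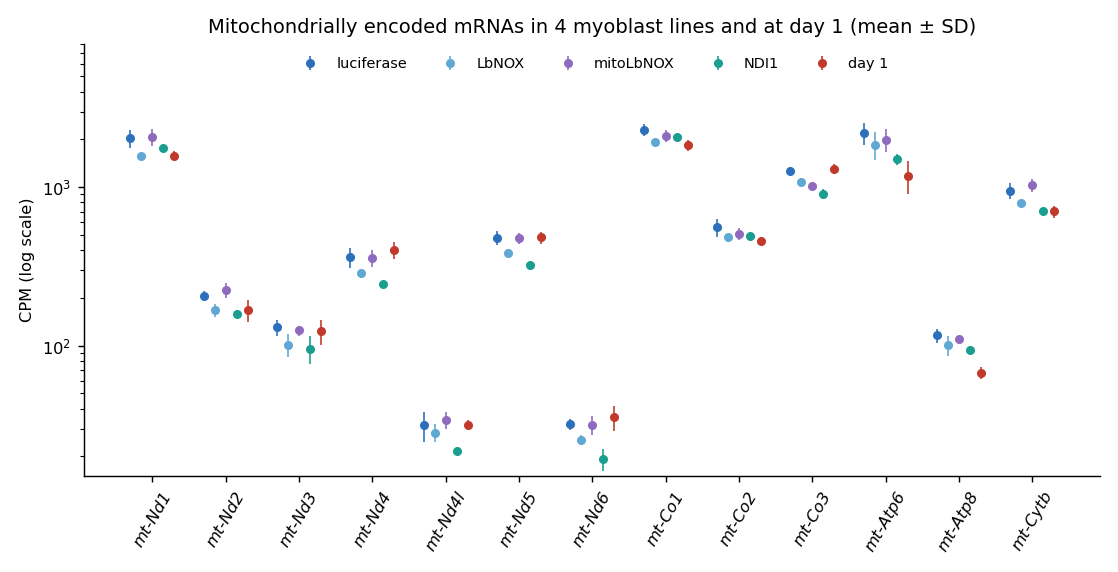
Level of the 13 mitochondrially encoded mRNAs in CPM on a log scale (y axis) in the 4 DMSO myoblast lines and in day 1 cells; points are means and bars are SD, n = 3 (NDI1, n = 2). Day 1 cells lie below all 4 lines for mt-Atp8, whereas for mt-Nd1 the LbNOX line and day 1 cells coincide.

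The gene groups were also counted against each of the 4 myoblast lines, in comparisons that share the 3 day 1 samples. Over all 12554 genes of that joint fit, 3318 (26.4%) were higher and 3287 (26.2%) were lower than in every line. All 48 replication genes, all 40 mitosis genes, all 41 sarcomere genes and all 13 myogenic factors called were also called in the same direction against each of the 4 lines. In the main fit, however, 31 of the 41 sarcomere genes and 2 of the 15 myogenic factors tested passed the count filter only through day 1. That route favors higher values against any line, so their agreement across lines is a description. The same held for 14 of 17 immediate early and ERK genes called, 10 of 15 YAP and SRF targets, 12 of 18 integrated stress response genes and 1 of 7 mitochondrially encoded genes. Over all genes called, it held for 79.1% of those higher and 83.5% of those lower. In separate edgeR fits of day 1 against 1 other line at a time, in place of the joint fit, the calls for some genes named by the rules were lost. They were those for Cdkn2c (LbNOX and NDI1, adjusted p = 0.0531 and 0.145), Lin54 and Dock1 (all 3 lines, 0.0615 to 0.125 and 0.051 to 0.111), Jag2, Neo1, Spry4, mt-Atp6 and mt-Cytb (NDI1, 0.0545, 0.104, 0.0842, 0.0662 and 0.936), Nefl, mt-Co1 and mt-Nd1 (LbNOX, 0.0794, 0.624 and 0.641) and Irf9, an interferon response factor (mitoLbNOX, 0.0929). The joint fit still called Spry4 against NDI1 (0.0389), Lin54 against LbNOX and NDI1 (0.0484 and 0.0279), Cdkn2c against LbNOX (0.0321) and Dock1 against mitoLbNOX (0.0445). Every line carries a transgene and received doxycycline, so this comparison does not separate either from low serum.

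Genes of ribosome biogenesis fell as a whole. All 27 were lower, with a median of -1.09. Npm1, nucleophosmin, fell from 1410 to 552 CPM (-1.34 ± 0.0283 SE, adjusted p = 1.99e-10, edgeR). Dkc1, the pseudouridine synthase of ribosomal RNA, fell by 1.98, the box C/D proteins Nop56 and Nop58 by 1.71 and 1.42, and nucleolin, Ncl, by 1.43. The smallest fall was that of Bop1, at -0.40. In each of the replication, mitosis and ribosome biogenesis groups, 1 gene passed the count filter only through the myoblasts, which favors lower values. From day 1 to day 4, 10 were lower, 3 higher and 14 not past the threshold, where 19.5% of all genes were lower and 17.7% higher.

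Targets of growth factor and tension signaling were mixed. Fosl1, an AP-1 subunit induced by ERK, fell from 97, 108 and 103 CPM to 9.06, 8.43 and 5.81 CPM (-3.72), and the ERK targets Etv4, Dusp5 and Spry4 fell by 2.07, 1.66 and 1.26. The immediate early genes Egr2, Egr3, Fos and Egr1 rose by 2.00, 1.97, 1.37 and 0.88. Of the 20 members tested, 9 were higher and 8 lower, with 33.8% and 31.9% of all genes. Targets of YAP and SRF leaned down, with 13 of 18 genes tested lower and 2 higher, although 8 of the 18 differed among the 4 myoblast lines: Cnn1, smooth muscle calponin, fell from 33.5 to 2.47 CPM (-3.74), Ctgf by 1.31, Cyr61 by 1.18 and beta-actin, Actb, from 9980 to 4557 CPM (-1.12). Acta2, smooth muscle actin, rose from 1671 to 3539 CPM (1.10) and returned to 1704 CPM at day 4.

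Most genes tested of the IGF axis, through which muscle cells promote their own differentiation, were higher at day 1. Igf2 stood at 0.282, 0.43 and 0.0945 CPM in the myoblasts and at 82.1, 82.4 and 83.7 CPM at day 1 (8.15 ± 0.175 SE, adjusted p = 2.15e-10, edgeR). H19, the noncoding RNA gene that neighbors Igf2 on chromosome 7, rose from 29.3 to 1093 CPM (5.24), and neither changed past the threshold at day 4. Igf1 rose by 6.04, and the binding protein genes Igfbp5, Igfbp4 and Igfbp3 by 4.46, 3.12 and 2.75. The receptor genes Igf2r (1.85) and Igf1r (0.47) and the adaptors Irs1 (0.99) and Irs2 (0.95) rose less. Of 15 members tested, 12 were higher and 1 lower, with a median of 1.48, but 4 of the 15 passed the count filter only through day 1, which favors higher values.

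Most extracellular matrix genes were higher at day 1, 68.8% of them where 33.8% of all genes were. The share that was lower, 28.1%, was near the 31.9% of all genes. Of 32 genes, 22 were higher and 9 lower, with a median of 1.07, and 15 of the 32 differed among the 4 myoblast lines; 3 passed the count filter only through day 1. Dcn, decorin, had 3 counts over the myoblasts and 2951 over the day 1 samples (ratio 1040, 95% interval 356 to 5050, counting error only) and fell by 1.48 to day 4. Postn, periostin, rose from 1.49 to 55.5 CPM and to 202 CPM at day 4, and Col3a1 from 820 to 4001 CPM. The collagen VI chains parted: Col6a1 and Col6a2 rose by 3.45 and 4.44 and Col6a3 fell by 1.33. Tnc, tenascin C, fell from 261 to 83.3 CPM and was back at 290 CPM at day 4.

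Genes of the integrated stress response, the program that the inhibitors of the series were tested for, showed no common direction between the 2 DMSO-treated states. Of 26 tested, 10 were higher (38.5%) and 8 lower (30.8%), near the 33.8% and 31.9% of all genes tested, with a median of 0.14. Among the 4 myoblast lines 16 of the 26 differed, and 4 passed the count filter only through day 1. Atf4, its central factor, stood at 239 and 242 CPM (0.03) and Asns, asparagine synthetase, at 174 and 175 CPM (0.02), neither past the threshold. Fgf21, a secreted stress hormone, rose from 0.188, 0.0717 and 0.0945 CPM to 40, 49.7 and 47.2 CPM (8.53 ± 0.233 SE, adjusted p = 1.09e-09, edgeR). Atf3 (2.55) and Nupr1 (1.25) rose, and the serine synthesis gene Phgdh (-0.83) and the cysteine synthesis gene Cth (-1.70) fell. With NDI1 myoblasts in place of the luciferase line, 5 were higher and 13 lower.

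Over all genes, most of the largest falls lay outside the cell cycle lists. Serpinb2, a protease inhibitor, stood at 30.8, 29.6 and 34.4 CPM in the myoblasts and at 0.195, 0 and 0.242 CPM at day 1 (-7.60 ± 0.29 SE, adjusted p = 1.1e-08, edgeR). Lce1g, a gene of the epidermal cornified envelope, had 386 counts over the myoblasts and 1 at day 1, a ratio of 365 (95% interval 65.1 to 14400, counting error only), and Prr9 had 198 and 3. Acsbg1, an acyl-CoA synthetase, fell from 43.3 to 1.89 CPM, and C3ar1, the complement C3a receptor, from 5.6 to 0.14 CPM. Lce1g, Serpinb2, Acsbg1 and Prl2c2 differed among the 4 myoblast lines, though each was lower at day 1 than in all of them. Prl2c2, Hist1h2ag and Pagr1a have near-identical copies, so that their own levels (76, 4.63 and 10.3 CPM in the myoblasts, 0.672, 0.234 and 0.642 CPM at day 1) are uncertain.

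Some genes were highest or lowest at day 1. The genes named here were chosen for that shape, so their values are a description. The clearest peak was Mest, an imprinted gene of the mesoderm, at 9.58, 8.53 and 10.3 CPM in the myoblasts, 436, 490 and 451 CPM at day 1 and 53.7, 47.8 and 44.2 CPM at day 4 (5.62, then -3.24). Fbln7, Dync1i1, Ptn and Nefl had the same shape, with day 1 levels of 81.5, 69.2, 46.4 and 7.03 CPM and falls to day 4 of 2.75, 2.55, 2.43 and 2.38. The clearest trough, by the smaller of the 2 changes, was found for Prr9, Apln, Cd24a, Ptpn6 and Pfkfb3. Cd24a, a surface glycoprotein, went from 39.5 to 8.1 and back to 52.4 CPM, and Pfkfb3, a regulator of glycolysis, from 11 to 2.6 and back to 10.8 CPM.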

How the data were processed

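The authors quantified reads with kallisto (version 0.44 in the submitters' processing notes, with bias correction) against the mouse transcriptome on GRCm38 and the transgenes, summed transcripts to genes with tximport and added up the flow cells. The deposited table holds these estimated counts as whole numbers, not normalized, for 54146 genes and 4 transgenes. Genes were kept if all replicates of either group had 16 or more counts, and were tested with edgeR 4.0.16 (quasi-likelihood F test, TMM, Benjamini-Hochberg adjustment, adjusted p under 0.05) in R 4.3.3, with the 2 groups alone in the fit. The other myoblast lines and day 4 were compared in 1 fit of 17 DMSO samples. SE is the size of the log2 fold change over the root of F; CPM uses TMM library sizes. The test was checked on simulated counts. Alternatives were DESeq2 1.42.0 and its size factors, no filter, a replicate block, the other lines and leaving out each replicate. Alternatives to the 17-sample comparisons and to the shares of counts were added after seeing the data.

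Gene lists, members and tests were chosen with earlier results of these data known. Genes named are all members of 5 small regulator lists, up to 5 per direction of the other lists with a mean of at least 50 counts in 1 group, the 10 largest changes per direction, 5 day 1 peaks and 5 troughs, and the transgenes, by fold change; further list members named were chosen after their values were seen, and some genes are not reported here. Gene positions are GENCODE on GRCm38, promoters RefSeq. Intervals and floors cover counting error only.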

Additional observations from a re-analysis of the deposited data

How the results depend on the processing

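The 4 counts of genes higher or lower stayed within 1.5 times their value under all 14 alternatives. Of 784 alternative counts of group members higher or lower, 767 stayed within that range and 17 moved. The replicate block gave 4089 higher and 3865 lower genes, where 4039 and 3809 were called without it. Leaving out 1 replicate at a time gave 3554 to 3908 higher and 3496 to 3780 lower genes, and 1773 to 1848 and 1229 to 1320 at least 2-fold. Of genes tested under both settings, 85.5% to 98.2% of higher and 86.8% to 100% of lower calls were kept. DESeq2's Wald test called 3680 higher and 3576 lower. Without the count filter, the genes that differ among the 4 myoblast lines became 1163 instead of 475; far more genes were then tested. Same-numbered samples of the 2 groups did not all deviate together (correlations 0.185, 0.145 and 0.0535), so the numbers were not taken to pair them, although each sample correlated best with its own number.

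Of 2838 alternative log2 fold changes of 203 named genes, 2791 kept direction and call, 27 lost and 4 gained the call and 16 reversed. The reversed values with another line in place of the luciferase line were E2f1 -0.0888 (mitoLbNOX) and -0.296 (NDI1), E2f8 0.0867 and 0.160 (same lines), Tfdp2 -0.0236 (LbNOX) and -0.176 (mitoLbNOX), Eya1 0.254, 0.287 and 0.0852 (LbNOX, mitoLbNOX, NDI1), Tcf3 0.181 (NDI1), Hes1 -0.0628 (LbNOX) and -0.655 (mitoLbNOX) and mt-Nd1 0.0245 (LbNOX). Leaving out 1 replicate moved Tfdp2 between -0.0343 and 0.192 and Hes1 between -0.000496 and 0.429. Of these 7 genes, mt-Nd1 alone had been called; the cause was not tested. Depth limits genes such as Myf6, with 7 counts over the day 1 samples, and bounds for genes at 0 rest on a floor of 3 counts.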

Other observations

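Sterol genes, which in many cells respond to serum lipids, showed no common direction at day 1. Of 24 tested, 8 were higher (33.3%) and 9 lower (37.5%) than in the luciferase myoblasts, with a median log2 fold change of 0.03. These shares lie near the 33.8% and 31.9% of all genes tested. Among the members given here, Stard4, a sterol carrier (-0.90), and the enzyme genes Sc5d (-0.83) and Idi1 (-0.42) fell, and Mvd (0.80), Ebp (0.65) and Fdft1 (0.52) rose (edgeR). Insig1, which holds back sterol sensing, was higher by 0.94 (adjusted p = 0.0132) with myoblast samples at 34.7, 90.9 and 74.1 CPM, and this call was lost without replicate 2 or without replicate 3 of the day 1 cells (adjusted p = 0.0551 and 0.0553). By day 4, 14 of the 24 had risen from day 1 and 2 had fallen, where 17.7% of all genes rose and 19.5% fell.

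Of 20 interferon response genes, 10 passed the count filter, with 5 higher and 1 lower. Of the 10, 4 passed only through the day 1 samples, which favors higher values, and with mitoLbNOX myoblasts in place of the luciferase line 3 were higher. Xaf1 rose from 0.766 to 4.43 CPM (2.53), Stat2 from 12.7 to 27.4 CPM (1.13) and Ddx58, the RNA sensor RIG-I, by 0.79. Ifit2 was lower by 0.49, a call lost without replicate 1 of the day 1 cells or replicate 1 of the myoblasts (adjusted p = 0.0547 and 0.0968).

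Among markers of other tissues, Scx, a tendon transcription factor, rose from 9.54 to 32.5 CPM (1.77) and Runx2, a bone transcription factor, fell from 34.9 to 14.7 CPM (-1.23), while Sox9, the cartilage transcription factor, rose by 0.38. Cd36, a fatty acid transporter of fat and muscle, had 0 counts in the myoblasts and 546 over the day 1 samples, at least 193-fold higher, and Lpl, lipoprotein lipase, rose from 4.0 to 15.4 CPM (1.96), while Pparg, the adipocyte regulator, fell from 8.86 to 3.88 CPM (-1.18).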
